A study of Mus musculus with 12 samples.

Results

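Laminins, nidogens, perlecan and Sparc are proteins of the basement membrane, the sheet of extracellular matrix on which epithelial and other cells rest. The genes described here are Lama1, Lama4 and Lama5 (laminin alpha chains), Lamb1 and Lamb2 (beta chains), Lamc1 (the gamma 1 chain), Nid1 and Nid2 (nidogens), Hspg2 (perlecan) and Sparc. They were chosen by name, and every probe that the array annotation gives to these symbols, or to the older symbol Lamb1-1 for Lamb1, was taken. This gave 10 genes of 21178 named on the array and 14 probes of 41174, with 4 probes for Lama4, 2 for Sparc and 1 for each of the other genes. All 10 genes passed the filter on dim probes, Lama4 only through its retinoic acid arrays.

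The study measured total RNA of mouse embryonic stem (ES) cells, which are pluripotent cells of the early embryo kept in culture, on 1-colour arrays. The 2 groups were ES cells differentiated for 3 days in retinoic acid and undifferentiated ES cells. Each group had 3 biological samples with 2 technical arrays each, so 12 arrays in all. The ES cell line, its genotype, the use of feeder cells and the concentration of retinoic acid are not given in the sources used here. The labels call the samples biological replicates and do not say that each was a culture of its own. A p-value here therefore covers only the variation among these 6 samples, part of which may be technical.

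Intensities below are linear, quantile-normalized between the arrays, and the mean of a sample's technical arrays. Tests were run on log2 of the intensity plus 50 with limma, and a gene was called at a Benjamini-Hochberg adjusted p under 0.05 over the 15325 genes tested. A log2 change is the retinoic acid mean minus the undifferentiated mean, on that scale, which understates the change of dim genes. The brightness of a probe depends on its sequence, so levels of different genes are not set against each other. Array medians before normalization ranged from 37.4 to 96.6, and 53.8% to 85.0% of the probes of an array exceeded the limit set by its negative control spots. The header of technical array 2 of undifferentiated sample 2 carries the name of technical array 1, and with array 2 left out the same 5 and 3 of the 10 genes were called higher and lower.

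A laminin is a trimer of an alpha, a beta and a gamma chain that assemble inside the cell and are secreted together, and the trimers polymerize outside it into a network held to cell-surface receptors by the alpha chain. Nidogens bind the gamma 1 chain and link this network to that of type IV collagen, perlecan is a heparan sulfate proteoglycan that binds laminin, nidogen and growth factors, and Sparc is a secreted calcium-binding protein that binds collagen IV. In the early mouse embryo the first basement membranes contain the trimer of the alpha 1, beta 1 and gamma 1 chains, and F9 teratocarcinoma cells given retinoic acid are a textbook case of induced Lama1, Lamb1, Lamc1 and type IV collagen as they become endoderm.

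Promoter sequence was given for 6 of the 10 genes. The windows of the genes that changed in opposite directions or side by side are shown: the beta chains Lamb1 and Lamb2, which were both higher after retinoic acid, Nid1, which was lower, and Hspg2, which was higher. Each is the 250 bases before the gene's start in the RefSeq annotation of GRCm38.p6, written 5′ to 3′ on the gene's strand. Lamb1 is at chr12:31265043-31265292, Lamb2 at chr9:108479612-108479861, Nid1 at chr13:13437352-13437601 and Hspg2 at chr4:137468553-137468802, all on the plus strand. Capitals mark matches on either strand to the GC box core GGGCGG and to AGTTCA, which is a half-site letter pattern of retinoic acid response elements.
Lamb1: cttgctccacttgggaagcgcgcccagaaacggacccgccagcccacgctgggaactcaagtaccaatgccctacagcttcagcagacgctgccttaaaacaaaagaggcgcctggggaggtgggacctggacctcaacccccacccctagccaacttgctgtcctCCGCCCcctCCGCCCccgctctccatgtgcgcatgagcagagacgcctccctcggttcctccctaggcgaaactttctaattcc
Lamb2: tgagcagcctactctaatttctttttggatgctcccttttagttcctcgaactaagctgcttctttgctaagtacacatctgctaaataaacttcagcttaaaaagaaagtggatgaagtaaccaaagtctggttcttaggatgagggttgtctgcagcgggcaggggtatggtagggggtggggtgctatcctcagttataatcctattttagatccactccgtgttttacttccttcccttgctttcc
Nid1: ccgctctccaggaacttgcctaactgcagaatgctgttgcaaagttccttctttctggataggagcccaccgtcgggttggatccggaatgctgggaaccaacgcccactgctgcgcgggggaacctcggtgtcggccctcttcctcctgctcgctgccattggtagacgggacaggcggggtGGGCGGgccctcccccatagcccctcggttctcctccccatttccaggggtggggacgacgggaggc
Hspg2: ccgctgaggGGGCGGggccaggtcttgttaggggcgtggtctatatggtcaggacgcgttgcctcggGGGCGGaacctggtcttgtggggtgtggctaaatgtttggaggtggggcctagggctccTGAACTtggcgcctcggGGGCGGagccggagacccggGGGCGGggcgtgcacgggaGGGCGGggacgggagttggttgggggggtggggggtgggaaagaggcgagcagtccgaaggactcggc

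Both strands were searched for the 2 motifs above, for a further half-site pattern, for the letters of a TATA box and for a binding pattern of GATA factors. GGGCGG was found 2 times before Lamb1, 1 time before Nid1, 5 times before Hspg2 and 4 times before Lama5, and 0 times before Lamb2 and Sparc, while 32.7% of all 32851 windows of this length held it. AGTTCA was found 1 time each before Hspg2 and Sparc, at 124 and 214 bases before the start, against 11.8% of all windows. The further half-site pattern, AGGTCA, had 0 matches in the 6 windows and is held by 14% of all windows. The TATA box letters, TATAAA, had 0 matches and are held by 12.4% of all windows. The GATA factor pattern, AGATAA, also had 0 matches and is held by 10% of all windows. Bases G and C made up 62.0% of the Lamb1 window and 43.6% of the Lamb2 window, beside a median of 52.4% over all windows. The window of Lamb1 was thus richer in G and C than that of Lamb2, and GGGCGG was in the Lamb1 window alone of these 2.

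After 3 days of retinoic acid both laminin beta chains, Lama4, perlecan and Sparc were called higher, and both nidogens and Lama1 were called lower. Lamc1 and Lama5 did not pass the test. The calls of Lama1 and Lama4 were lost in 17 of 22 and 11 of 21 alternative settings. Lama4 was tested only through its retinoic acid arrays. With these 2 genes included, 5 of 10 genes were called higher and 3 lower, where 18.7% of all genes tested were called higher and 13.6% lower. The median log2 change of the 10 genes was 0.56, beside 0.0036 over all genes tested. In 9 of the 10 genes the 3 retinoic acid values lay wholly above or wholly below the 3 undifferentiated values, which held for 46.6% of all genes tested. In a bulk sample, fewer cells that express a gene and less of its RNA per cell cannot be told apart.

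**Figure D1:**
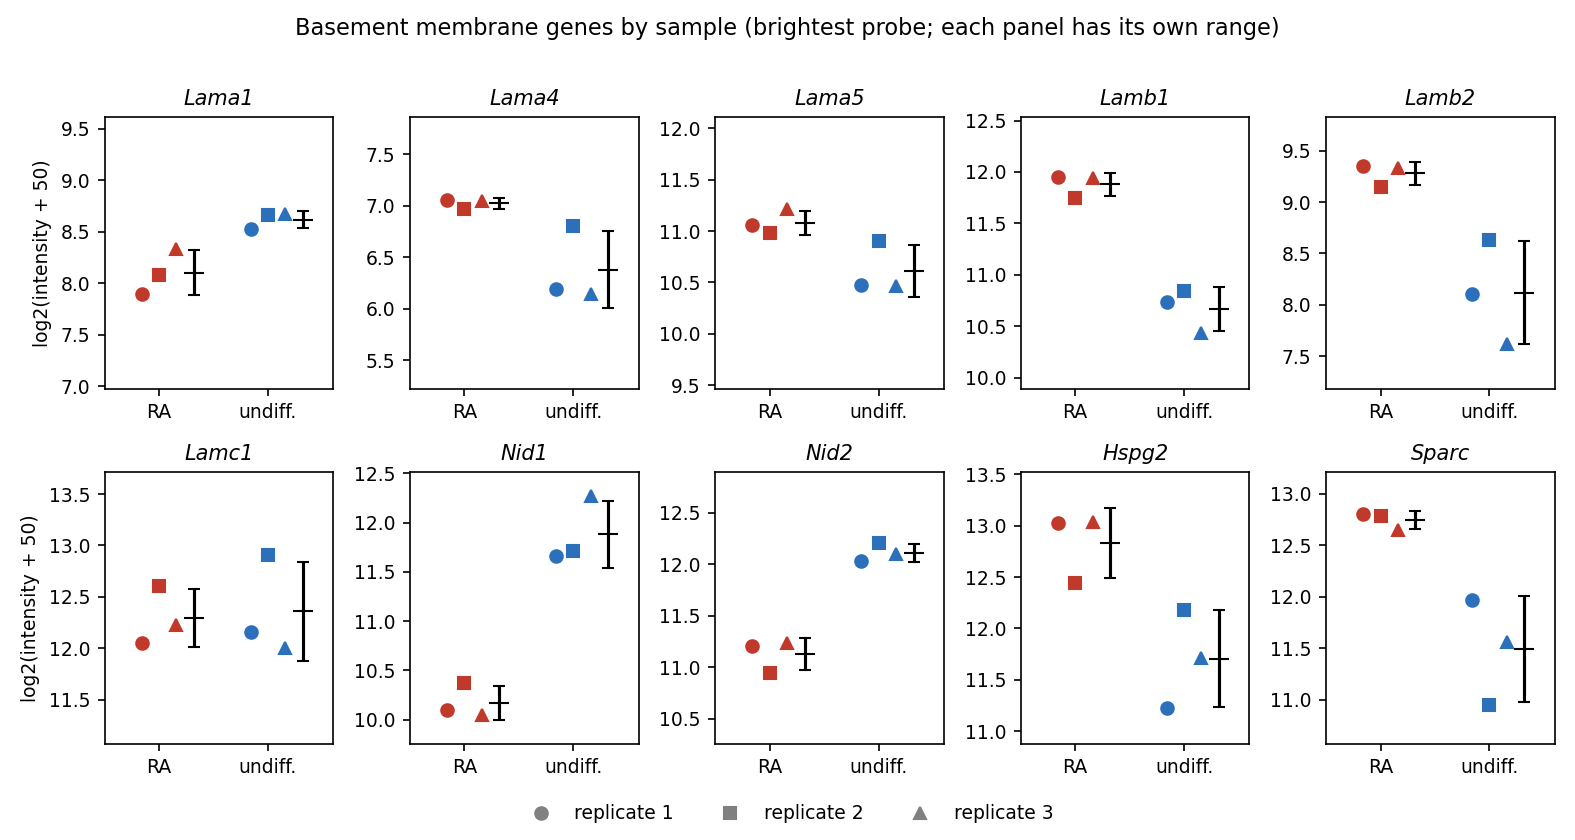
Log2 of the quantile-normalized intensity plus 50 of each of the 10 genes at its brightest probe, each panel with its own range, in the 3 samples after retinoic acid (RA) and the 3 undifferentiated samples; a point is a sample, its shape the replicate number, and the bars are the group mean and SD. The groups overlap in Lamc1 and in none of the other 9 genes.

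Lama1 codes for the alpha 1 chain, the alpha chain of the first embryonic basement membranes. Its intensity was 189.3, 220.6 and 272.4 in the retinoic acid samples, against 317.6, 355.7 and 357.4 in the undifferentiated samples. All 3 retinoic acid samples lay below the undifferentiated ones, and they varied more among themselves. The log2 change was -0.52 (SE 0.17, limma adjusted p 0.0467), from means of 8.10 ± 0.22 after retinoic acid and 8.62 ± 0.08 in undifferentiated cells (SD, n = 3 each), a fall of 1.43-fold. The adjusted p is close to the threshold, and the call was lost on leaving out any of the 6 samples in turn, with adjusted p between 0.0581 and 0.174. In the fit of every probe by itself, adjusted over 26587 probes, of which 25.5% were called, its adjusted p was 0.0571. A further probe that has no gene symbol, described as a clone of laminin alpha 1 and not counted here, had a log2 change of -0.25 (adjusted p 0.317).

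Lama4 codes for the alpha 4 chain, a truncated alpha chain best known from blood vessels, muscle and fat. At its brightest probe the intensity was 83.7, 75.1 and 82.2 in the retinoic acid samples, against 23.3, 66.9 and 20.7 in the undifferentiated samples. The groups did not overlap, but undifferentiated sample 2 lay close to the retinoic acid samples and far from its own group. The log2 change was 0.64 (SE 0.21, limma adjusted p 0.0460), with means of 7.02 ± 0.05 and 6.38 ± 0.37 (SD, n = 3 each). These values are near background: the probe exceeded the limit of the negative control spots on 6 of 6 retinoic acid arrays and on 3 of 6 undifferentiated arrays. The technical arrays of undifferentiated sample 2 read 33.6 on array 1 and 100.3 on array 2, the array with the doubtful header. This is a gap of 0.85 on the log2 scale where the largest technical gap of the brightest probes of the other 9 genes was 0.24. Without that array the change was 0.78 (adjusted p 0.00509). The call was lost on leaving out any of the 6 samples except undifferentiated sample 2, with adjusted p between 0.0857 and 0.142.

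The other Lama4 probes were dimmer. A_52_P7554 read 46.1, 49.7 and 51.3 in the retinoic acid samples, against 22.4, 11.2 and 14.8 in the undifferentiated samples. This probe exceeded the limit on 6 of 6 retinoic acid arrays and on 3 of 6 undifferentiated arrays, so it too was tested only through its retinoic acid arrays. Its values did not overlap between the groups, with a change of 0.59 (per-probe adjusted p 0.0208), but the undifferentiated values lie near background. The remaining probes, A_51_P212427 and A_52_P78714, exceeded the limit on 0 of 6 retinoic acid arrays and were not tested, and their changes were 0.20 and 0.03. The 4 probes therefore differ in size of change, and the mean over them gave 0.37. At the brightest probe the change was 1.38 with 1 and 1.13 with 10 added in place of 50, so its size is not well measured.

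Lama5 codes for the alpha 5 chain, the most widespread alpha chain of mature epithelial basement membranes and a substrate on which ES cells attach. It read 2076.4, 1973 and 2321.2 in the retinoic acid samples, against 1373.2, 1869.1 and 1362.5 in the undifferentiated samples. Retinoic acid samples were all above, though undifferentiated sample 2 came close. The log2 change of 0.47 (SE 0.18) did not pass the test (limma adjusted p 0.0804), and its 95% interval before adjustment ran from 0.057 to 0.88. The change was 0.26 with arrays scaled to their 75th percentile (adjusted p 0.371) and 0.29 with arrays scaled to their median (adjusted p 0.366), neither called. Without undifferentiated sample 2 it was 0.61 and was called (adjusted p 0.0214).

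The beta chains were higher by similar amounts. Lamb1 codes for beta 1, the beta chain of the early embryonic trimer, and read 3908.6, 3388.4 and 3880.5 in the retinoic acid samples, against 1653.9, 1792.2 and 1332.1 in the undifferentiated samples. The groups were far apart relative to their spread. Lamb1 had a log2 change of 1.21 (SE 0.17, limma adjusted p 0.00130), with means of 11.88 ± 0.11 and 10.67 ± 0.21 (SD, n = 3 each), or 2.31-fold higher after retinoic acid. This call held in all 22 alternative settings.

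Lamb2 codes for beta 2, the beta chain of kidney glomeruli, synapses and vessels. It read 604.3, 516.6 and 595.7 in the retinoic acid samples, against 225.9, 345.4 and 147.1 in the undifferentiated samples. The retinoic acid samples lay close together and the undifferentiated samples spread widely, without overlap. Lamb2 had a log2 change of 1.16 (SE 0.25, limma adjusted p 0.0100), 2.23-fold higher after retinoic acid, with means of 9.28 ± 0.11 and 8.12 ± 0.50 (SD, n = 3 each).

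Lamc1 codes for gamma 1, the gamma chain shared by most laminin trimers. It read 4209.7, 6167.1 and 4749.1 in the retinoic acid samples, against 4536.1, 7645.8 and 4060.7 in the undifferentiated samples. The groups overlapped, and sample 2 was the brightest of each group. The log2 change was -0.06 (SE 0.27, limma adjusted p 0.886), and the 95% interval before adjustment, from -0.68 to 0.56, leaves room for moderate change in either direction. Scaling to the 75th percentile gave -0.42 (adjusted p 0.339), scaling to the median -0.38 (0.429), and leaving out undifferentiated sample 2 turned the value to 0.21 (0.461), none of them called.

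Nidogens moved the other way from the beta chains. Nid1, the nidogen that binds the gamma 1 chain with high affinity, read 1048.5, 1272.3 and 1006.3 in the retinoic acid samples, against 3190.2, 3301.8 and 4902.4 in the undifferentiated samples. All retinoic acid samples lay far below. For Nid1 the log2 change was -1.71 (SE 0.21, limma adjusted p 0.000655), with means of 10.17 ± 0.17 and 11.88 ± 0.34 (SD, n = 3 each), a fall of 3.28-fold and the largest change among the 10 genes.

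Nid2, the other nidogen, which can partly stand in for nidogen 1 in mice, read 2311.4, 1923.2 and 2359.4 in the retinoic acid samples, against 4139.2, 4673.7 and 4342.4 in the undifferentiated samples. The groups were tight and well apart. For Nid2 the log2 change was -0.98 (SE 0.15, limma adjusted p 0.00228), a fall of 1.98-fold, with means of 11.13 ± 0.16 and 12.11 ± 0.09 (SD, n = 3 each). The calls of Nid1 and Nid2 held in all 22 alternative settings.

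Hspg2, the gene of perlecan, read 8275.5, 5513.7 and 8330.9 in the retinoic acid samples, against 2349.9, 4583.6 and 3308.5 in the undifferentiated samples. Sample 2 was the lowest of the retinoic acid group and the highest of the undifferentiated group, and these values stood next to each other without overlap. The log2 change was 1.13 (SE 0.28, limma adjusted p 0.0167), 2.18-fold higher after retinoic acid, with means of 12.83 ± 0.34 and 11.71 ± 0.47 (SD, n = 3 each). The call was lost when arrays were scaled to their 75th percentile (0.78, adjusted p 0.0684) or median (0.82, adjusted p 0.0619), and without retinoic acid sample 1 (adjusted p 0.0630), retinoic acid sample 3 (0.0692) or undifferentiated sample 1 (0.0521). A further probe without a gene symbol, described as a clone of perlecan and not counted here, had a log2 change of 0.03 with overlapping groups. That probe exceeded the limit on 3 of 6 retinoic acid and 2 of 6 undifferentiated arrays and was not tested.

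Sparc read 7105.7, 7026.6 and 6378 in the retinoic acid samples, against 3958.5, 1931.5 and 2974.2 in the undifferentiated samples. The retinoic acid samples were uniformly bright. Sparc changed by 1.25 on the log2 scale (SE 0.25, limma adjusted p 0.00728), 2.38-fold higher after retinoic acid, with means of 12.75 ± 0.09 and 11.49 ± 0.51 (SD, n = 3 each). The other Sparc probe, A_51_P431087, read 3985.8, 3457.4 and 2989.7 in the retinoic acid samples, against 1841, 1670.2 and 1769.8 in the undifferentiated samples. It moved the same way by 0.95 (per-probe adjusted p 0.00464).

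**Figure D2:**
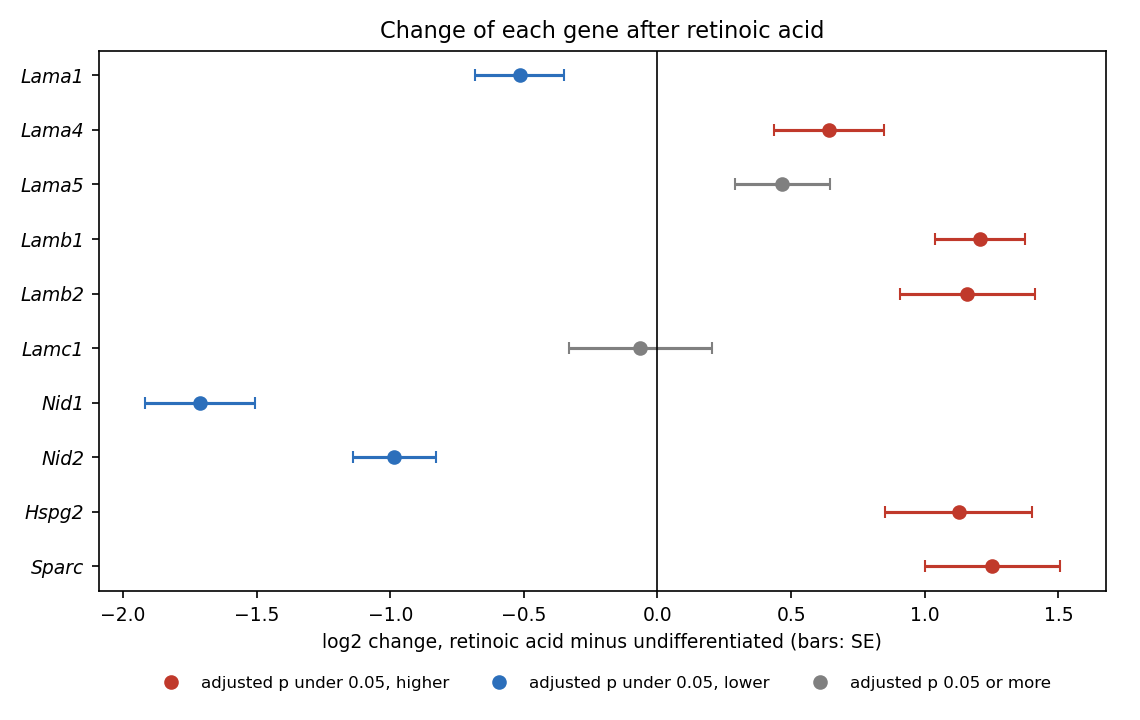
Log2 change after retinoic acid (retinoic acid minus undifferentiated, n = 3 each) of the 10 genes, with the standard error of the limma fit as bars and colour for the call at an adjusted p under 0.05. The beta chains, Hspg2 and Sparc sit between 1.13 and 1.25, Nid1 is lowest at -1.71, and Lamc1 has the value nearest to 0, at -0.06.

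Undifferentiated sample 2 was the brightest sample of its group in 7 of the 10 genes, a share that was not computed over all genes. With this sample left out, 6 of the 10 genes were called higher and 2 lower: Lama5 was then called and Lama1 was not. Calls over all 15325 genes tested also rose, to 3148 higher and 2107 lower, against 2871 and 2081 with all samples.

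Subunit balance was read within each sample as the log2 value of a gene minus that of its partner, set relative to the undifferentiated mean of that difference. Differences of this kind were tested for 10 pairs with a two-sided exact permutation test. With 3 samples against 3 this exact test has 20 splits and cannot go below p = 0.1, so no pair could pass 0.05, and the pairs at that p had 0.167 after Benjamini-Hochberg adjustment over the 10 pairs. Values are therefore given with their standard errors and whether the groups overlap.

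Among the alpha chains, Lama5 minus Lama1 was 1.16, 0.91 and 0.88 in the retinoic acid samples, against -0.04, 0.25 and -0.20 in the undifferentiated samples. The balance lay on the side of Lama5 in every retinoic acid sample. The difference was 0.98 (SE 0.16, exact p 0.1), a ratio 1.98-fold higher after retinoic acid. The pairs with Lama4 rest on a probe near background in undifferentiated cells, so their size follows the value added before log2 and the choice of probe, and they are given as a description. Lama4 minus Lama1 differed by 1.16 (SE 0.24), by 1.99 with 1 and 1.72 with 10 added in place of 50, and by 0.88 with the mean of a gene's probes. Lama5 minus Lama4 overlapped between the groups and differed by -0.18 (SE 0.09), by -0.90 with 1 and -0.65 with 10 added, and by 0.10 with the mean of probes. It therefore has no settled direction.

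The balance of the beta chains did not differ beyond the spread. Lamb2 minus Lamb1 was -0.05, -0.05 and -0.05 in the retinoic acid samples, against -0.07, 0.33 and -0.26 in the undifferentiated samples. The retinoic acid samples were nearly identical, with an SD of 0.0037 beside 0.30 in undifferentiated cells. The difference was -0.05 (SE 0.17, exact p 1), and its sign changed with the scaling, with smaller added values and without undifferentiated sample 2, to between 0.07 and 0.20.

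Beta 1 and gamma 1 are partners in the same trimers. Lamb1 minus Lamc1 was 1.58, 0.83 and 1.40 in the retinoic acid samples, against 0.26, -0.37 and 0.12 in the undifferentiated samples. Every retinoic acid sample lay above every undifferentiated sample. The difference was 1.27 (SE 0.30, exact p 0.1), a ratio 2.41-fold higher after retinoic acid. Set against Lamc1, Lama1 gave -0.45 (SE 0.32, exact p 0.3) with overlapping groups, but -0.08 under both other scalings and between -0.70 and -0.25 on leaving out 1 sample. Lama5 gave 0.53 (SE 0.24, exact p 0.2) with overlapping groups. Lama4 gave 0.71 (SE 0.20), with 1.44 for 1 and 1.19 for 10 added, 1.04 with 75th percentile scaling and 0.43 with the mean of probes.

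Nid1 minus Lamc1, a nidogen set against the laminin chain it binds, was -1.48, -1.76 and -1.71 in the retinoic acid samples, against -0.02, -0.72 and 0.75 in the undifferentiated samples. The undifferentiated samples differed widely among themselves and still lay above all retinoic acid samples. The difference was -1.65 (SE 0.43, exact p 0.1), a ratio 3.13-fold lower after retinoic acid. Nid2 minus Nid1 was 0.88, 0.35 and 0.96 in the retinoic acid samples, against 0.14, 0.26 and -0.40 in the undifferentiated samples, a difference of 0.73 (SE 0.28, exact p 0.1), or 0.41 without sample 3 of both groups. The groups did not overlap, but their nearest samples, at 0.35 and 0.26, lay close together. As a description of these 6 samples, the mean balance of the nidogens lay further toward Nid2 after retinoic acid.

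**Figure D3:**
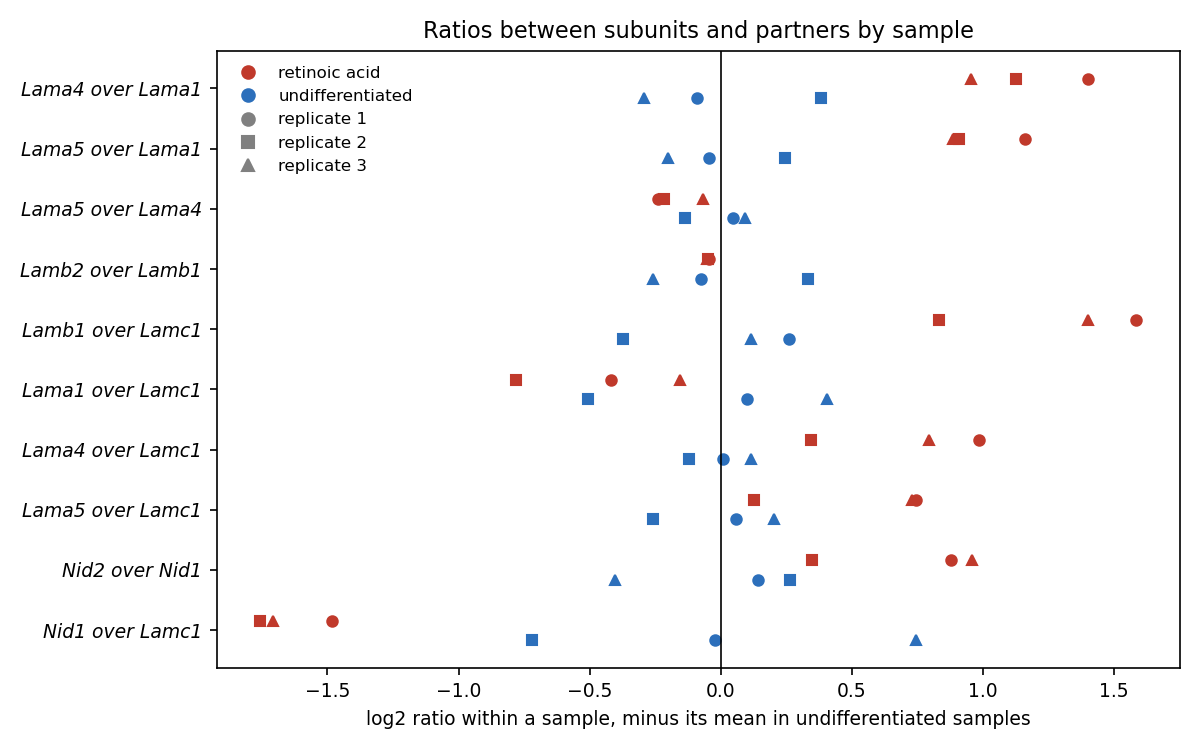
Log2 ratio between the genes of each of the 10 pairs within a sample, minus its mean in the 3 undifferentiated samples, for the 3 retinoic acid samples (upper points of a pair) and the 3 undifferentiated samples (lower points). The groups do not overlap for Lama4 over Lama1, Lama5 over Lama1, Lamb1 over Lamc1, Lama4 over Lamc1, Nid2 over Nid1 and Nid1 over Lamc1.

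Other components of the basement membrane were mostly higher or not called. Of 29 genes listed, 22 were tested, and 14 were higher, 0 lower and 8 not called. Over all genes tested, 18.7% were called higher and 13.6% lower. The median log2 change of the 22 genes was 1.01, beside 0.0036 over all genes. Of the listed genes, 14 exceeded the limit on all 6 undifferentiated arrays, and without those that were dim on any array 9 were called higher. Col4a5, Egflam, Npnt and Smoc2, counted as higher, were tested only through their retinoic acid arrays. Among further laminin chains, Lama2, Lama3, Lamb3 and Lamc3 were tested and 0 of these 4 were called, with changes of 0.00, -0.62, -0.14 and -0.30. The largest rises were those of Ecm1, a matrix protein that binds perlecan, Col4a2, a type IV collagen chain, and Tinagl1, a secreted basement membrane glycoprotein. They were 3.33 for Ecm1 (limma adjusted p 7.64e-05), 3.12 for Col4a2 (0.000182) and 2.89 for Tinagl1 (4.49e-05). Other probes of Ecm1 and Tinagl1 gave 0.79 and 0.19 and were not called, whereas the other Col4a2 probe gave 2.0 (per-probe adjusted p 0.00605). Col4a1, the partner chain of Col4a2, was named after its value was seen and was higher by 2.67 (adjusted p 0.000471).

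Among receptors and other cell-surface binders of the basement membrane, 19 of 20 listed genes were tested. Of these, 11 were higher, 2 lower and 6 not called, with a median of 1.05. The shares over all genes tested were 18.7% higher and 13.6% lower. The largest rises were 3.56 for Gpc3 (limma adjusted p 1.11e-05), a glypican, 3.25 for Sgce (0.000973), a sarcoglycan, and 3.20 for Itga3 (3.71e-05), the integrin alpha 3 subunit, which pairs with beta 1 to bind laminins. Another Itga3 probe gave 3.07, and the remaining one gave 0.72 and was not called. The genes that were lower were Sdc4, a syndecan, at -1.18 (adjusted p 0.00807) and Itga6, the integrin alpha 6 subunit of laminin receptors, at -1.04 (adjusted p 0.00226). Their other probes, at -0.95 for Sdc4 and -0.97 and -0.38 for Itga6, were not called. Dag1 and Itgb1 were named after their values were seen: dystroglycan, a receptor of laminin alpha chains, was higher by 1.47 (adjusted p 0.000611), and the integrin beta 1 subunit did not pass (-0.07, adjusted p 0.823). The other Dag1 probe gave 1.17 and was not called (per-probe adjusted p 0.0889). Other Itgb1 probes gave 0.52, not called (per-probe adjusted p 0.327), and 0.07, not tested.

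Genes for the assembly and crosslinking of matrix proteins were higher or not called. Of 19 tested of 20 listed, 8 were higher, 0 lower and 11 not called, with a median of 0.69. For all genes tested the shares were 18.7% higher and 13.6% lower. In this list 1 gene was called lower when arrays were scaled to their 75th percentile or median. Bmp1, counted as higher, exceeded the limit on 3 of 6 undifferentiated arrays and was tested only through its retinoic acid arrays. Pxdn, a peroxidase that crosslinks type IV collagen, was higher by 3.15 (limma adjusted p 6.92e-05). The other Pxdn probe gave -0.06, exceeded the limit on no array and was not tested. Serpinh1, the collagen chaperone of the endoplasmic reticulum, was higher by 2.84 (adjusted p 0.000182). Tgm2, a crosslinking enzyme that acts on nidogen among other proteins, was higher by 2.79 (adjusted p 0.000679), although its other probes gave 0.55 and 0.35 and were not called.

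**Figure D4:**
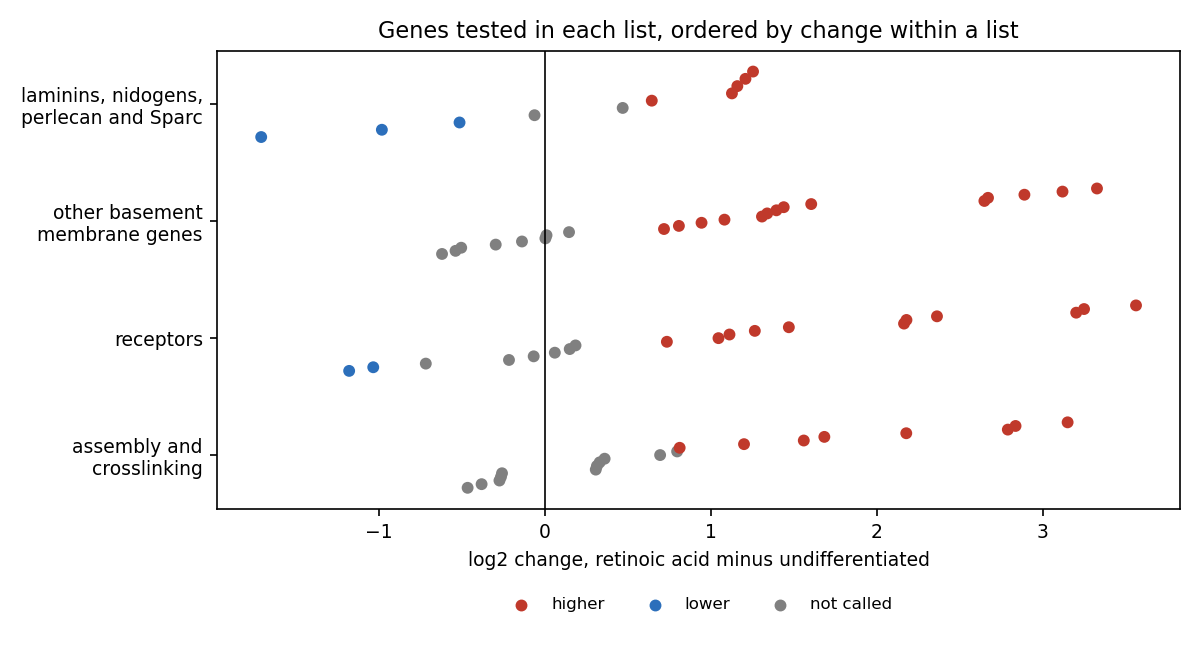
Log2 change after retinoic acid of each tested gene in 4 lists, ordered within a list: the 10 genes described here, 22 other basement membrane genes, 19 receptors and 19 assembly and crosslinking genes. Colour gives the call at an adjusted p under 0.05, and the rises of the other lists extend to 3.56, beyond the 1.25 of the laminin, nidogen, perlecan and Sparc genes.

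Marker genes were read beside these changes, and beside the 18.7% of all genes tested that were called higher and the 13.6% called lower. All 5 markers of undifferentiated ES cells with a named probe fell, and their summed intensity was 2895 to 3531 in the retinoic acid samples, against 64631 to 93462 in the undifferentiated samples. Of 6 genes known to respond to retinoic acid, 5 were higher and Stra6 was not called. Their sum was 80567 to 82778 in the retinoic acid samples and 3697 to 8813 in the undifferentiated samples. These values follow the labels of both groups.

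Endoderm makes much laminin in the early embryo, and 5 of the 11 tested of 14 endoderm markers were higher, with 6 not called. Beside this list and the next, 18.7% of all genes tested were called higher and 13.6% lower. The summed intensity of the endoderm markers was 8617 to 9393 in the retinoic acid samples, against 1590 to 2384 in the undifferentiated samples. Gata6, Plat and Sox17 were higher by 4.11, 4.09 and 3.78, Sox7 and Dab2 also rose, Ttr exceeded the limit on no array, and Gata4, Foxa2, Afp, Pdgfra, Amn and Cubn were not called. Other Gata6 probes gave 1.51 and, not tested, 0.03. Those of Plat gave 2.91 and 0.55, both called, and those of Sox17 gave 4.23, called, and 0.08 and 0.04, not tested. The other Sox7 probe gave 0.20 and was not tested, and those of Dab2 gave 0.38, not called, and 0.10, not tested. Of the feeder fibroblast markers 6 were higher, 1 lower and 3 not called of 10 tested. Their sums were 25727 to 32383 in the retinoic acid samples, against 5944 to 14759 in the undifferentiated samples. After retinoic acid the fibroblast sum was mostly Tagln and Acta2, with log2 means of 13.70 and 13.69, where Col1a2, the next tested gene, had 9.78. Acta2 was not called at its brightest probe. Dcn and Col6a1, counted as higher, exceeded the limit on 2 and 1 of 6 undifferentiated arrays and were tested only through their retinoic acid arrays. Tagln and Col1a2 rose by 5.25 and 3.39 and Thy1 was lower, at -2.07. The other probes of Tagln and Thy1 gave 5.73 and -0.76, both called. That of Col1a2 gave 0.11, exceeded the limit on no array and was not tested.

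Of the trophoblast markers 5 were higher, 1 lower and 2 not called of 8 tested, and Elf5 exceeded the limit on no array. Their sums were 48993 to 57445 after retinoic acid and 4352 to 6090 in undifferentiated cells. After retinoic acid the trophoblast sum was mostly Krt18 and Krt8, with log2 means of 15.03 and 14.05, where Krt7, the next tested gene, had 10.97. Krt18, Krt8 and Krt7 rose by 4.78, 4.65 and 4.20, and Tfap2c was lower, at -3.08. Cdx2, counted as higher, exceeded the limit on 2 of 6 undifferentiated arrays and was tested only through its retinoic acid arrays. Of the endothelial markers, which bear on Lama4, 0 were higher, 1 (Esam, -0.53) was lower and 4 were not called of 5 tested. Their sums were 473 to 862 after retinoic acid and 743 to 1899 in undifferentiated cells. Beside the trophoblast and endothelial counts, 18.7% of all genes tested were called higher and 13.6% lower. The part of the endoderm, fibroblast and trophoblast genes in the changes of the laminins, nidogens, perlecan and Sparc was not tested.

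The genes whose pattern over the 6 samples was most like the mean of Lamb1 and Lamc1 were Hps6, Stx6, Dync2li1, Mtmr10 and Lbx2, with Pearson r of 0.998, 0.997, 0.997, 0.997 and 0.996 over 6 samples that fall into the 2 groups. This is a description of 15325 genes ranked on 6 points, and of these 5 genes Stx6 (0.69, limma adjusted p 0.0379) and Lbx2 (0.88, adjusted p 0.0325) were called higher.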

How the data were processed

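After 1 round of amplification, RNA was labelled with Cy3, per the labels. The deposited scanner tables of the 12 arrays hold, per the file headers, net mean intensity per spot on a linear scale, for 41174 probes and 94 control spots. Local background had been taken off in them, no value was below 0, and the tables carry no detection or saturation flag, slide or date, so batches could not be tested. The authors' deposited table of processed intensity, for 41173 probes, kept the probe order of each array (rank correlation 1) with a median of 56.9 in each column. It is linear, is not centred, and served as an alternative. R 2.15.0 and limma are named in the submitters' processing notes. Probes were named through accessions matched to the RefSeq gene table of GRCm38.p6, or by symbol: 34907 probes had a name and 6267 had none. Since no source used here gives the array's build, the only coordinates are those of the RefSeq promoter windows.

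Intensities were quantile-normalized between arrays, 50 was added and log2 taken, and technical arrays were averaged. The limit of an array was the 95th percentile of its 27 negative control spots. A gene was tested at its brightest probe if this probe exceeded the limit on 4 or more of the 6 arrays of either group. The 3 samples of each group were compared in limma 3.58.1 under R 4.3.3 (lmFit and eBayes, two-sided, no covariates, Benjamini-Hochberg adjustment), with code tested on simulated data. Pairs of genes were compared with exact permutation tests. Python 3.11.15 with matplotlib 3.10.9 drew the figures. The number of samples, 3 in each group, limits the precision, as does the brightness of dim probes.

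The genes, lists and pairs were chosen with earlier results of these data known. Besides the 10 genes, those named are, per list, up to 3 genes higher and 3 lower with the largest change among called genes without overlap, the members of counts of 5 or fewer, and the 5 genes most like the mean of Lamb1 and Lamc1. The other marker genes, Col4a1, Col4a5, Egflam, Npnt, Smoc2, Bmp1, Dag1 and Itgb1 were named after their values were seen. Some list members are counted in the totals and not reported here by name.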

Additional observations from a re-analysis of the deposited data

How the results depend on the processing

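Results were recomputed under 22 alternatives, 21 planned and 1 (leaving out replicate number 3, the brightest arrays, in both groups) chosen after seeing the data. Lamb1, Nid1 and Nid2 kept their calls in all 22. The call of Lama1 was lost in 17 of 22 (adjusted p 0.0334 to 0.174) and that of Lama4 in 11 of 21 (0.00483 to 0.350), as it could not be fitted on arrays all above the limit; its change was 1.38 with 1 and 1.13 with 10 added before log2. The call of Hspg2 was lost in 6 of 22, those of Lamb2 and Sparc once each, without replicate number 3 (adjusted p 0.0670 and 0.0528), and Lama5 gained a call with the sample as a random block (adjusted p 0.0236) and without undifferentiated replicate 2. Leaving out each sample in turn gave 3 to 6 of the 10 genes called higher and 2 called lower, against 5 and 3. Of all genes, 2007 to 3148 were then called higher and 1227 to 2107 lower, against 2871 and 2081. Without replicate number 3 in both groups, which leaves 2 samples each, 1 of the 10 genes was called higher, and 1621 and 1112 of all genes were called higher and lower, against 2871 and 2081. The sign of Lamb2 minus Lamb1 turned with 75th percentile scaling (0.20), median scaling (0.20), 1 added (0.10), 10 added (0.070) and without undifferentiated replicate 2 (leaving out samples ranged from -0.18 to 0.12). Lama5 minus Lama4 turned to 0.10 with the mean of a gene's probes, against -0.90 with 1 added, -0.65 with 10 added and -0.37 with 75th percentile scaling, and Lamc3 turned to 0.012. Across alternatives Lama4 minus Lama1 ranged from 0.88 to 1.99, Lama4 minus Lamc1 from 0.43 to 1.44 and Lama1 minus Lamc1 from -0.70 to -0.08. With 75th percentile and median scaling Lamc1 was at -0.42 and -0.38, and Lama5 at 0.26 and 0.29 (not called). Leaving out samples, Lamc1 ranged from -0.24 to 0.21, Lama2 from -0.050 to 0.038 and Itgb1 from -0.18 to 0.11. Lama2 also turned to -0.027, -0.012, -0.029, -0.010, -0.069 and -0.0077 with 75th percentile scaling, median scaling, 1 added, 10 added, technical array 2 alone and without the array with the doubtful header. Itgb1 turned to 0.17 with the mean of probes, 0.14 with technical array 2 alone and 0.051 without replicate number 3. The cause of these turns was not tested, and none of these values of Lamc1, Lamc3, Lama2 and Itgb1 passed the test. Sdc4 lost its call without replicate number 3 (adjusted p 0.0834). Lama3 gained a call with technical array 1 alone (-1.07) and without retinoic acid replicate 1 (-1.02), and Gata4 without undifferentiated replicate 2 (-0.61). Higher calls were 58.0% of all calls, against 48.0% with 75th percentile and 51.4% with median scaling, which moved the median of all genes to -0.0873 and -0.0613. Whether the replicate numbers pair the samples could not be settled with 3 samples in each group. Deviations of same-numbered samples from their group means correlated at -0.06, 0.22 and 0.07 over 15325 genes. Those of differently numbered samples ranged from -0.26 to 0.26. The arrays of replicate number 3 were the brightest in both groups, so a shared batch is possible and was not tested. With the replicate number as a block, 2849 and 2039 of all genes and 4 and 3 of the 10 genes were called higher and lower, Lama4 being lost (0.64, adjusted p 0.0621). Dim probes limit Lama4 most, since its levels lie near the limit of the negative control spots.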
